A study of Mus musculus with 6 samples.

Results

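The G1 cyclins and their CDK inhibitors were followed in mouse ES cells that changed culture medium. The genes are 3 D-type cyclins (Ccnd1, Ccnd2 and Ccnd3), 2 E-type cyclins (Ccne1 and Ccne2) and genes of 2 inhibitor families. The CIP/KIP genes are Cdkn1a, which encodes p21, and Cdkn1b, which encodes p27. The INK4 genes are Cdkn2a, which encodes the inhibitor p16Ink4a and also p19Arf, and Cdkn2b, which encodes p15Ink4b. These genes were chosen by name, with earlier results of these data known, and all 9 were found among the 12626 genes of the RNA-seq. J1, a male WT ES cell line, was grown feeder-free with LIF in serum medium (D0) and then converted to 2i+vitC, which is serum-free medium with LIF, the Gsk3 inhibitor CT-99021, the MEK inhibitor PD0325901 and vitamin C. RNA was sequenced at D0, D6 and D13, from 2 biological replicates on each day, which makes 6 samples. All cells came from a single line and LIF was present throughout. MEK inhibition, Gsk3 inhibition, vitamin C, the loss of serum and the time in culture changed together, so that their parts cannot be told apart.

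Cyclins D and E bind and activate CDKs that phosphorylate the pocket proteins Rb, p107 and p130, which releases E2F factors and opens the way from G1 into S phase. D-type cyclins act with Cdk4 and Cdk6 and depend on growth factor signals through the MEK-ERK pathway, and E-type cyclins act with Cdk2. CIP/KIP proteins inhibit cyclin-Cdk2 complexes, while INK4 proteins bind Cdk4 and Cdk6. ES cells in serum are known for a short G1, for abundant cyclin E and for low levels of CDK inhibitors.

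The samples held 73230745 to 83688345 reads on genes. Expression is given as the deposited log2 CPM (log2 of the reads scaled to library size, after TMM normalization), and a difference between days was called when the limma adjusted p was under 0.05. The 6 ES cell markers, from Pou5f1 to Tdgf1, lay between 7.29 and 10.2 log2 CPM in every sample. The summed CPM of the 3 primed epiblast markers with a value (of 4) was 861 and 1004 at D0 and 75.2 to 119.9 in 2i+vitC. That of the 2 primitive endoderm markers (of 4) was 16.5 and 18.0 at D0 and 1.53 to 2.13 later, and that of the trophoblast marker (of 4, Eomes) was 2.97 to 5.41. The sum of the 4 fibroblast markers (of 6, mostly Vim) was 137 and 36.7 at D0 and 168 to 352 later. Of these, Vim was higher in each 2i+vitC sample than in serum, while Col1a1, Col1a2 and Thy1 did not rise. The D0 replicates stood apart from each other: 10.2% of all genes differed by more than 1 on the log2 scale between them, against 0.958% at D6 and 7.77% at D13. Replicate 1 of D0 was higher than replicate 2 for 8 of the 9 genes, and 5 of them differed by more than 1 (Ccnd2, Ccne1, Ccne2, Cdkn2a and Cdkn2b). It was also higher in Pou3f1 (5.91 against 4.44 log2 CPM) and Col1a1 (4.21 against 1.87) and lower in Esrrb (7.29 against 8.77). The part of these marker and replicate differences in the results was not tested. In bulk RNA, fewer cells of a type and less RNA per cell cannot be told apart.

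From D0 to D13, 4 of the 9 genes were called higher (Ccnd3, Cdkn1a, Cdkn2a and Cdkn2b) and 2 were called lower (Ccnd2 and Ccne1). Over all genes, 20.9% were called higher and 21.8% lower in this comparison, 42.7% in all. From D0 to D6, 3 were called, all of them higher (Ccnd3, Cdkn1a and Cdkn2a), where 13.8% of all genes were called higher and 10.4% lower. From D6 to D13 none of the 9 was called, where 4.18% of all genes were; 2 of them (Cdkn1a and Cdkn2a) had an unadjusted limma p under 0.05, and limma with voom precision weights called 0 as well. With the 4-fold minimum of the study added, 2 were called higher at D13 than at D0 (Cdkn1a and Cdkn2a) and 1 lower (Ccnd2), beside 7.45% and 6.01% of all genes. By the same rule 1 was called higher at D6 than at D0 (Cdkn1a), beside 5.91% of all genes. The values of the days did not overlap for 6 of the 9 genes between D0 and D6, for 7 between D6 and D13 and for 7 between D0 and D13, beside 69.4%, 61.6% and 69.6% of all genes. The median log2 fold change of the 9 genes was 0.63, 0.11 and 0.44 in these 3 comparisons, and that of all genes was -0.01 in each. The 9 genes went in both directions, and the values 0.63 and 0.44 were those of Cdkn1b, which was not called. These comparisons share samples.

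**Figure D1:**
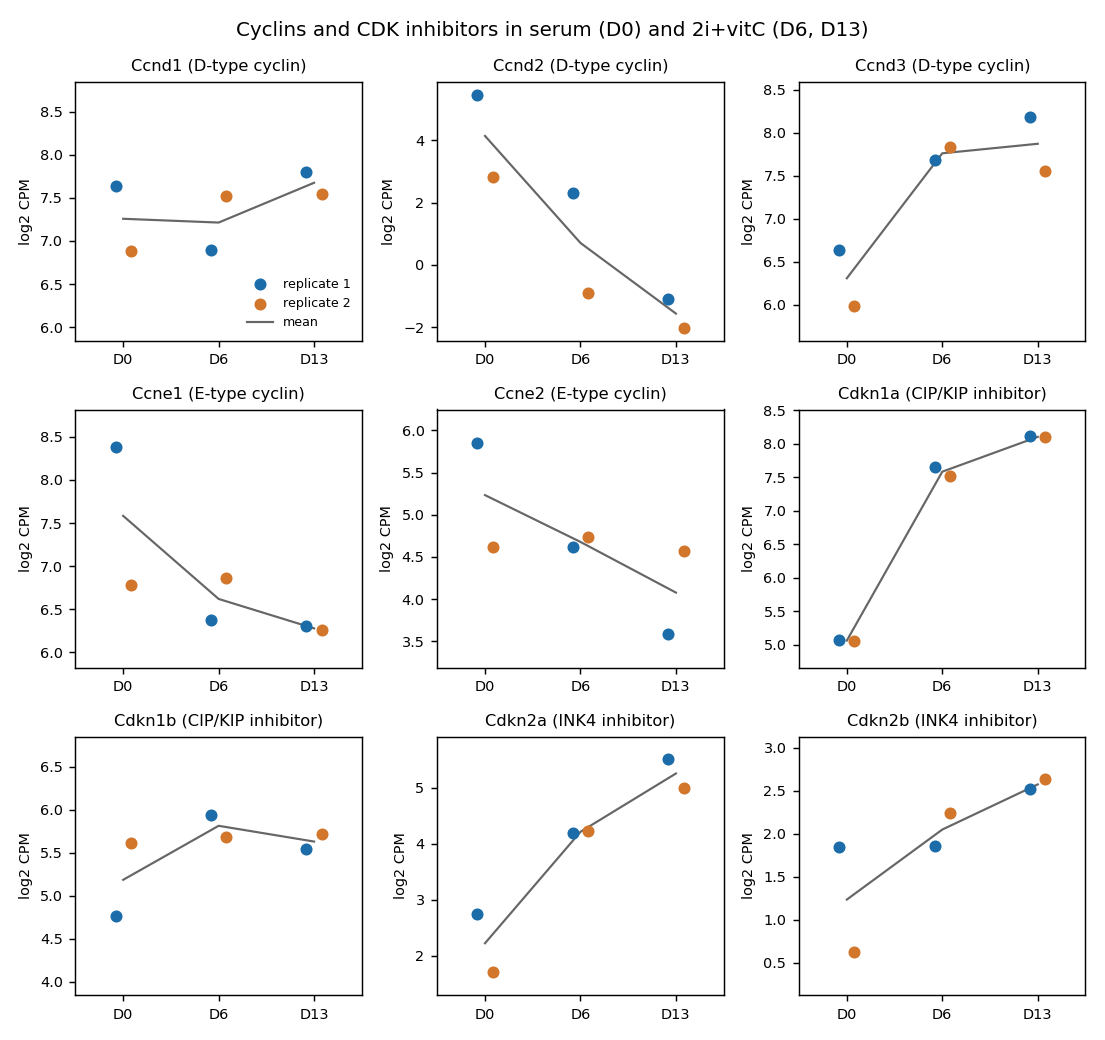
Deposited log2 CPM of each gene (y axis, own range in each panel) in both replicates (points) of D0, D6 and D13 (x axis), with the day means joined by lines. Cdkn1a replicates nearly coincide and rise from about 5.07 to 8.10, while Ccnd2 falls from 5.45 and 2.82 to -1.09 and -2.02 with widely separated replicates at D0 and D6.

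**Figure D2:**
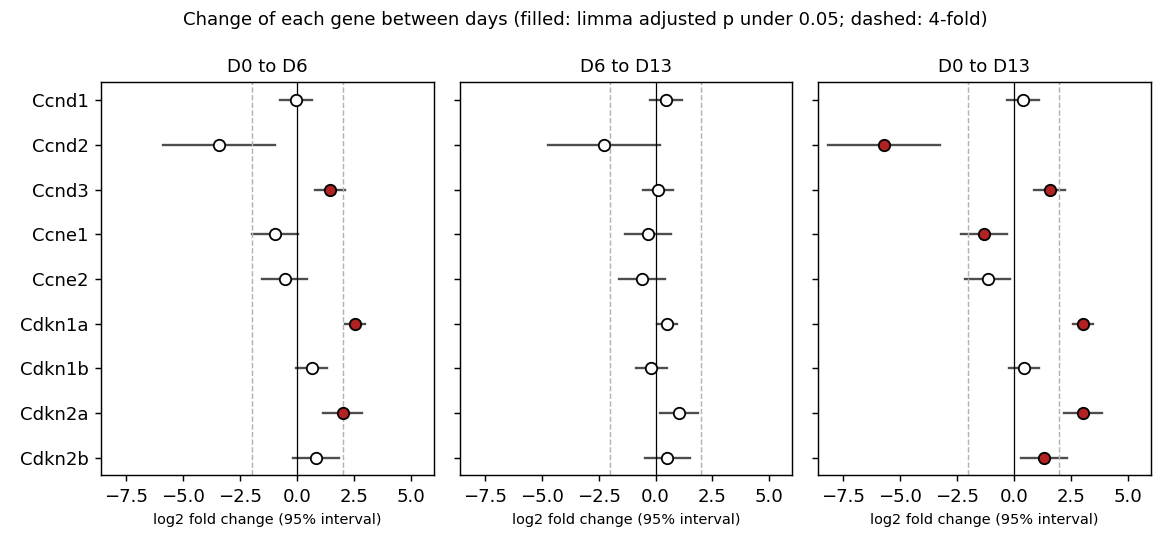
Log2 fold change between days (x axis) with its 95% interval for each gene (y axis), in 3 panels for D0 to D6, D6 to D13 and D0 to D13. Filled points mark genes with a limma adjusted p under 0.05, of which there are 3, 0 and 6, and dashed lines mark 4-fold.

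Among the D-type cyclins, Ccnd2 was lower and Ccnd3 higher at D13 than in serum, while Ccnd1, a classical target of ERK signals, passed no test. Ccnd1 lies on chr7:144929931-144939925 (GRCm38, minus strand), Ccnd2 on chr6:127125162-127152193 (minus strand) and Ccnd3 on chr17:47505051-47599691 (plus strand). Ccnd2 was at 5.45 and 2.82 log2 CPM at D0 (3450 and 615 reads), at 2.32 and -0.90 at D6 (392 and 45 reads) and at -1.09 and -2.02 at D13 (33 and 18 reads). Each day lay below the one before without overlap, but the replicates were 6.21-fold apart at D0 and 9.31-fold apart at D6. From D0 to D13 Ccnd2 was 51.7-fold lower (log2 fold change -5.69, SE 1.08, limma adjusted p = 0.00354), and this value was -4.38 without D0 replicate 1 and -7.01 when D0 replicate 2 was left out, still called in both cases. The difference between D6 and D0, a log2 fold change of -3.43 (SE 1.08), missed the threshold (limma adjusted p = 0.0503). Leaving out a sample moved this value widely: it was -2.11 without D0 replicate 1 and -1.82 without D6 replicate 2, not called, and -4.75 without D0 replicate 2 and -5.04 without D6 replicate 1, both called. Other settings that called it were log2(CPM + 1), where it was -2.65, and the adjustment without the transposon families.

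Ccnd3 was at 6.63 and 5.98 log2 CPM at D0, at 7.68 and 7.84 at D6 and at 8.19 and 7.56 at D13. All 4 samples in 2i+vitC were above both serum samples, and D6 and D13 overlapped. The rise was 2.74-fold from D0 to D6 (log2 fold change 1.45, SE 0.29, limma adjusted p = 0.00717) and 2.96-fold from D0 to D13 (1.57, SE 0.29, adjusted p = 0.00322). Ccnd1 was at 7.63 and 6.88 log2 CPM at D0, at 6.90 and 7.53 at D6 and at 7.80 and 7.55 at D13, so that the serum range overlapped that of both later days. Between D0 and D13 its log2 fold change was 0.42 with a 95% interval from -0.29 to 1.12, and from D0 to D6 it was -0.04, with an interval from -0.75 to 0.66, which held 0.

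The balance of the D-type cyclins was compared per length, in CPM per kilobase (RPKM, over the union of the exons of each gene). Of the D-type sum, Ccnd1 made up 74.2% ± 2.38 at D0, 55.7% ± 6.07 at D6 and 61.9% ± 4.33 on D13 (SD, n = 2). The share of Ccnd3 was 20.6% ± 1.68, 43.7% ± 5.37 and 38.1% ± 4.32 on these days, and that of Ccnd2 was 5.14% ± 4.06, 0.580% ± 0.697 and 0.0522% ± 0.0134. Ccnd1 was thus the leading D-type cyclin on each day with this length, and the share of Ccnd3 was higher in each 2i+vitC sample than in serum. With the longest annotated transcript as the length, Ccnd3 led at D6 (58.2% against 41.3% for Ccnd1) and at D13 (52.6% against 47.4%), so that the order of these 2 genes in 2i+vitC depends on the gene model. The summed D-type level was 45.6 ± 17.8 RPKM at D0, 57.3 ± 11.3 at D6 and 71.0 ± 13.8 at D13.

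**Figure D3:**
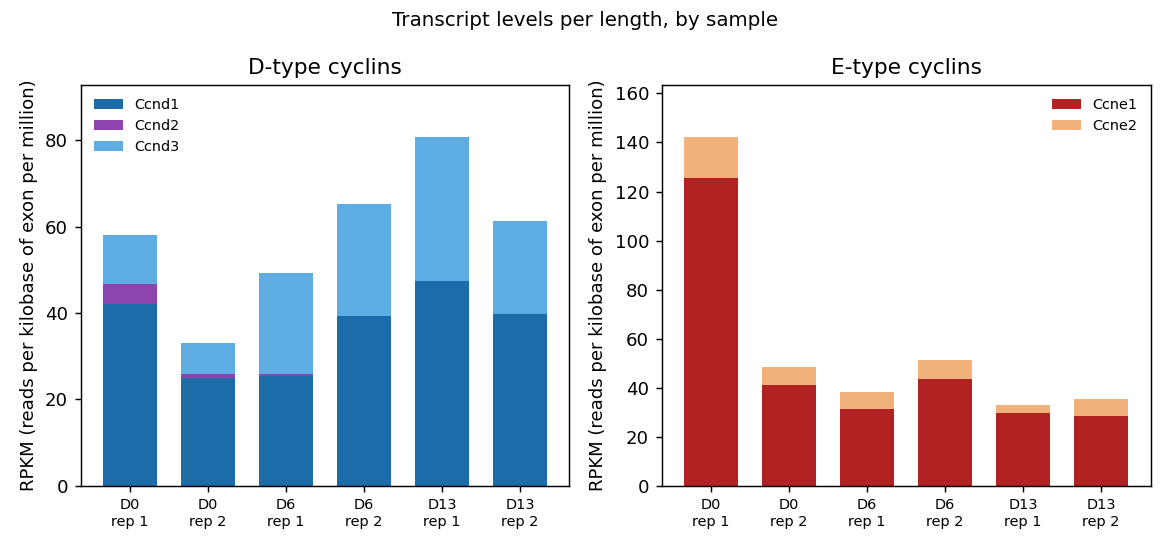
Stacked RPKM (y axis, from 0) of the 3 D-type cyclins (left) and the 2 E-type cyclins (right) in each of the 6 samples (x axis). The E-type sum is 142 in D0 replicate 1 and 33.0 to 51.3 in the other 5 samples, and the Ccnd2 segment is visible only at D0 and D6 replicate 1.

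Both E-type cyclins were highest in D0 replicate 1, and Ccne1 was called lower at D13 than in serum while Ccne2 was not. Ccne1 lies on chr7:38097984-38107534 (minus strand) and Ccne2 on chr4:11191351-11204779 (plus strand). Ccne1 was at 8.39 and 6.78 log2 CPM at D0 (26365 and 9591 reads), at 6.37 and 6.86 at D6 and at 6.30 and 6.25 at D13. D0 replicate 1 was far above the other 5 samples, and D0 replicate 2 fell between both D6 samples. Ccne1 was 2.47-fold lower at D13 than at D0 (log2 fold change -1.31, SE 0.45, limma adjusted p = 0.0435). This call was lost without D0 replicate 1, where the log2 fold change was -0.50, without D13 replicate 1 (-1.33), without D13 replicate 2 (-1.28) and in limma without the mean-variance trend, while the value was -2.11 without D0 replicate 2. Between D0 and D6 the log2 fold change was -0.97 (SE 0.45, adjusted p = 0.16). It was -0.16 without D0 replicate 1, not called, and -1.77 without D0 replicate 2, called.

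Ccne2 was at 5.85 and 4.62 log2 CPM at D0, at 4.62 and 4.74 at D6 and at 3.59 and 4.57 at D13. The D13 samples lay below both serum samples; the difference, a log2 fold change of -1.15 (SE 0.44), missed the threshold (limma adjusted p = 0.0618). It was -0.54 without D0 replicate 1 and -0.67 without D13 replicate 1, not called, and -1.77 without D0 replicate 2 and -1.64 without D13 replicate 2, both called. The fit of D0 and D13 alone called it as well. Per length, Ccne1 held 86.9% ± 2.09 of the E-type sum at D0, 83.4% ± 2.49 at D6 and 85.2% ± 6.19 (SD, n = 2) on D13. This share lay between 80.8% and 89.6% in all 6 samples, while the sum of the pair went from 95.2 ± 66.4 RPKM at D0 to 44.8 ± 9.33 at D6 and 34.2 ± 1.68 at D13.

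Cdkn1a was the most evenly measured of the 9 genes and rose in 2i+vitC. It encodes p21, an inhibitor of Cdk2 and a classical target of p53, and lies on chr17:29090976-29100727 (plus strand). It was at 5.07 and 5.06 log2 CPM at D0 (2648 and 2912 reads), at 7.65 and 7.52 at D6 (15854 and 15611 reads) and at 8.11 and 8.10 at D13 (19795 and 20534 reads). The replicates of each day differed by 0.13 at most, and the days did not overlap. Cdkn1a was 5.74-fold higher at D6 than at D0 (log2 fold change 2.52, SE 0.19, limma adjusted p = 7.11e-05) and 8.22-fold higher at D13 than at D0 (3.04, SE 0.19, adjusted p = 2.21e-05). Leaving out each sample in turn gave 3.03 to 3.05 from D0 to D13, the narrowest range of the 9 genes. The step from D6 to D13 was 0.52 (SE 0.19, adjusted p = 0.149). The difference between the second step and the first, -2.0 (SE 0.34), was called for Cdkn1a (limma adjusted p = 0.00941) and for none of the other 8 genes, where 8.85% of all genes were called. That call was lost without D6 replicate 1 (-1.87) and without D6 replicate 2 (-2.13).

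Cdkn1b, on chr6:134920401-134925513 (plus strand), encodes p27, which restrains Cdk2 and is controlled in large part by protein turnover. It was at 4.76 and 5.61 log2 CPM at D0, at 5.94 and 5.69 at D6 and at 5.55 and 5.72 at D13. It was the only one of the 9 genes that was lower in D0 replicate 1 than in D0 replicate 2, and the D13 samples overlapped the serum range. Its log2 fold change was 0.63 at D6 (SE 0.30, limma adjusted p = 0.169) and 0.44 at D13 (SE 0.30, adjusted p = 0.257), each against D0. Both depended on the serum replicates: without D0 replicate 1 they were 0.20 and 0.0185, not called, and without D0 replicate 2 they were 1.05 and 0.87, both called.

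The INK4 genes Cdkn2a, on chr4:89274471-89294653 (minus strand), and Cdkn2b, on chr4:89306299-89311039 (minus strand), lie 11645 bases apart and were both called higher at D13 than at D0. The values are per gene, so that the reads of p16Ink4a and p19Arf, which start at separate first exons of Cdkn2a, are summed in them. Only p16Ink4a of this pair is an INK4 protein, and its part in the values of Cdkn2a cannot be told. The 250 bases upstream of the RefSeq starts (GRCm38.p6, coding strand, 5′ to 3′) are shown for the 3 inhibitor genes that rose, with each CpG in capitals, because CpG methylation is what this change of medium is used to remove. For Cdkn1a the start with more CpGs of its 2 is given.
Cdkn2a, p19Arf start, chr4:89294620-89294869: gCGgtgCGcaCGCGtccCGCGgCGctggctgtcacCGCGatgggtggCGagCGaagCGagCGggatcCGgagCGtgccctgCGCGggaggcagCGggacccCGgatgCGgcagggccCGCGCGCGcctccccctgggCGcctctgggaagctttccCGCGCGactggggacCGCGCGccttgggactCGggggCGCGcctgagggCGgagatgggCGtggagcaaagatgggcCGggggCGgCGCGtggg
Cdkn2a, p16Ink4a start, chr4:89282193-89282442: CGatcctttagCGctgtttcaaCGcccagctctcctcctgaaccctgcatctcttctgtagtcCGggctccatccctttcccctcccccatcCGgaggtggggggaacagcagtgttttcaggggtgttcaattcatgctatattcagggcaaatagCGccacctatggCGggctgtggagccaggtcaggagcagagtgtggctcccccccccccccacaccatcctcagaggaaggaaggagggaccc
Cdkn2b, chr4:89311033-89311282: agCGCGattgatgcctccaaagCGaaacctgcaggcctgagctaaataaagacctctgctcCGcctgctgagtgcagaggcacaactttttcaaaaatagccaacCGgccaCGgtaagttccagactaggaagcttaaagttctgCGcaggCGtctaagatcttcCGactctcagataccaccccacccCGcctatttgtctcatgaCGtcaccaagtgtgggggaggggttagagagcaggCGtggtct
Cdkn1a, chr17:29093519-29093768: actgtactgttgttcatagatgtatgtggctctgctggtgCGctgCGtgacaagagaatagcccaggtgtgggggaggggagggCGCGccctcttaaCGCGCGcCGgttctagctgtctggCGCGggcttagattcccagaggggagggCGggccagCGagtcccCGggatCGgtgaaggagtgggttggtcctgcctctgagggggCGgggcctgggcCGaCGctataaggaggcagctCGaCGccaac

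The p19Arf start held 40 CpGs, more than 98.7% of the 32851 RefSeq windows of this length, whereas the p16Ink4a start held 7 and Cdkn2b held 12. The window of Cdkn1a held 19, and its other window held 2. The median over all windows was 6, with quartiles of 2 and 16. A GC box (GGGCGG, searched on both strands) stood in the p19Arf and the shown Cdkn1a window. It also stood in the windows of Ccnd3, Ccne1 and Cdkn1b, and in 32.7% of all windows. Windows were found for 6 of the 9 genes. Those of Cdkn1b and Ccne1 held 28 and 34 CpGs, and both windows of Ccnd3 held 11 and 19. The RNA-seq gives no methylation of these windows.

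Cdkn2a was at 2.75 and 1.70 log2 CPM at D0 (528 and 283 reads), at 4.19 and 4.24 at D6 (1442 and 1604 reads) and at 5.52 and 5.0 at D13 (3271 and 2400 reads). The days followed each other upward without overlap. Cdkn2a was 3.98-fold higher at D6 than at D0 (log2 fold change 1.99, SE 0.37, limma adjusted p = 0.0048) and 8.20-fold higher at D13 than at D0 (3.04, SE 0.37, adjusted p = 0.000372). The step from D6 to D13 was 1.04 (95% interval 0.20 to 1.88, adjusted p = 0.131), and the difference between the second step and the first was -0.95, with an interval from -2.40 to 0.50.

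Cdkn2b was at 1.85 and 0.62 log2 CPM at D0 (283 and 134 reads), at 1.86 and 2.24 at D6 (285 and 402 reads) and at 2.51 and 2.63 at D13 (408 and 465 reads). Both D13 samples were above all others, while D0 replicate 1 and D6 replicate 1 were nearly equal. Cdkn2b was 2.53-fold higher at D13 than at D0 (log2 fold change 1.34, SE 0.44, limma adjusted p = 0.0382). This call was lost in the fit of these days alone, without D0 replicate 2 (0.73) and without each of the D6 and D13 samples in turn, while the value was 1.95 without D0 replicate 1. Between D0 and D6 the log2 fold change was 0.81 (SE 0.44, adjusted p = 0.226). It was 0.20 without D0 replicate 2, not called, and 1.43 without D0 replicate 1, called.

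The order of the 9 transcripts per length was different on each day. At D0 Ccne1 led with 83.5 ± 59.7 RPKM, followed by Ccnd1 with 33.6 ± 12.1, and these overlapped (SD, n = 2). Ccne2, Cdkn1a, Ccnd3 and Cdkn1b followed between 11.7 and 8.35 RPKM, each overlapping its neighbour, and Cdkn2a (4.25), Ccnd2 (2.70) and Cdkn2b (1.85) came last. At D6 Cdkn1a led with 54.1 ± 3.51 RPKM, above Ccne1 (37.4 ± 8.89) without overlap. At D13 Cdkn1a stood at 77.5 ± 0.656 RPKM, above Ccnd1 (43.6 ± 5.45), and Cdkn2a (33.2 ± 8.31), Ccne1 (29.1 ± 0.689) and Ccnd3 (27.3 ± 8.31) overlapped in this order. Below them came Cdkn1b (10.9), Ccne2 (5.11) and Cdkn2b (4.29), of which the last pair overlapped, and Ccnd2 was last with 0.038 ± 0.0167. Cdkn1a thus went from the fourth to the first place and Cdkn2a from the seventh to the third. With the longest transcript as the length, the places of Cdkn1a were the same, but Cdkn2a took the fourth place at D13 (43.4 RPKM), below Ccnd3 (62.1) and Ccnd1 (54.9), and Ccnd3 (56.3) rather than Ccne1 (49.8) followed Cdkn1a at D6.

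The other genes of the inhibitor families were Cdkn2c and Cdkn2d, which were higher at D13 than in serum, and Cdkn1c, which was lower. Cdkn2c, which encodes p18Ink4c, was at -1.07 and -1.07 log2 CPM at D0 (37 and 41 reads), at 1.38 and 1.27 at D6 and at 2.28 and 1.73 at D13. Between D0 and D13 its log2 fold change was 3.08 (SE 0.40, limma adjusted p = 0.000535), and 2.40 of it was reached at D6 (adjusted p = 0.00284). Cdkn2d, which encodes p19Ink4d, was at 2.87 and 3.06 log2 CPM at D0 and at 4.96 and 4.21 at D13. This was a log2 fold change of 1.62 (SE 0.31, limma adjusted p = 0.00343). All 4 INK4 genes were thus called higher at D13 than in serum, beside 20.9% of all genes. The call of Cdkn2b among them was lost in several settings, as given above. Cdkn1c, the third CIP/KIP gene, which encodes p57 and is imprinted, was at 6.26 and 4.08 log2 CPM at D0 and between 0.96 and 1.46 in the 4 samples in 2i+vitC. It was lower by D6 (log2 fold change -4.03, SE 0.61, adjusted p = 0.00177) and at D13 (-3.91, SE 0.61, adjusted p = 0.00136), and the latter was -2.82 without D0 replicate 1 and -5.0 when D0 replicate 2 was left out. The 16 genes found of the list of other CDK inhibitors and of proteins that turn them over held 2 called higher and 3 called lower at D13 (31.2% in all, beside 42.7% of all genes).

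**Figure D4:**
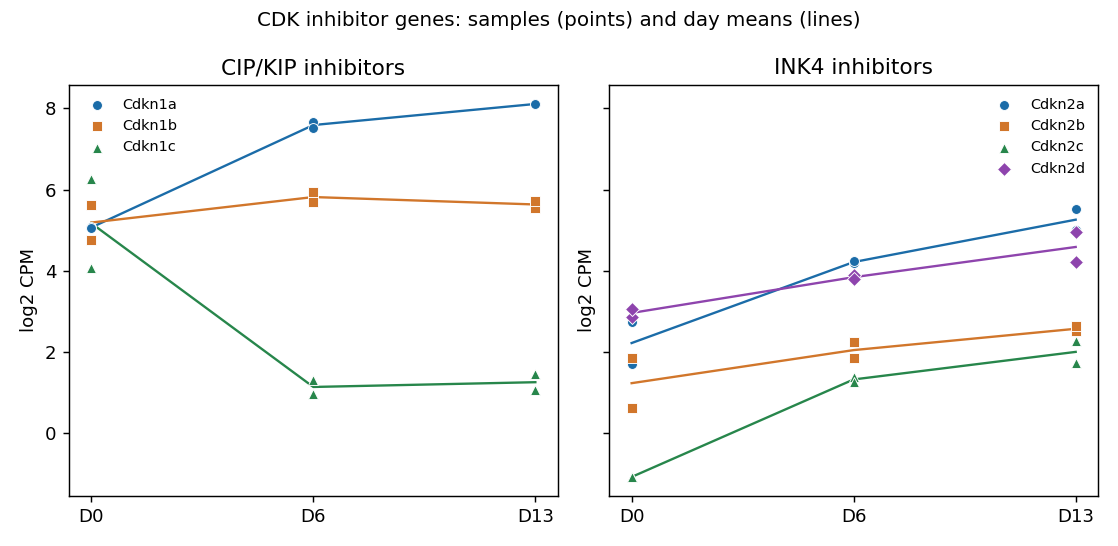
Deposited log2 CPM (y axis) of the 3 CIP/KIP genes (left) and the 4 INK4 genes (right) at D0, D6 and D13 (x axis), with both samples of a day as points and the day means joined by lines. The 4 INK4 genes rise, Cdkn1a rises and Cdkn1c falls from a mean of 5.17 to 1.14 and 1.26.

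Of 156 genes found on 9 lists around the G1-S machinery, 25 were called higher and 43 lower from D0 to D13, which is 43.6% of them beside 42.7% of all genes. The remaining 88 were not called from D0 to D13. The lists were drawn up with earlier results of these data known and serve as a description. In this comparison the other cyclins held the fewest calls, 1 of 17 (5.88%, beside 42.7% of all genes): Ccnj was lower by D13 (log2 fold change -2.33, SE 0.33, limma adjusted p = 0.000785). Without D0 replicate 1 the call count of this list was 1 higher and 2 lower, and without D13 replicate 2 it was 1 higher and 3 lower.

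Of the 13 CDKs found, 2 were called higher and 4 lower from D0 to D13, 46.2% in all, near the 42.7% of all genes. The higher count was 1 in the fit of these days alone and when D13 replicate 1 or any of the D0 and D6 samples was left out. Cdk2, the partner of cyclin E, was at 6.71 and 6.69 log2 CPM at D0, at 7.62 and 7.61 at D6 and at 7.84 and 7.79 at D13, a rise of 1.11 on the log2 scale (SE 0.19, limma adjusted p = 0.00224). The partners of D-type cyclins gave log2 fold changes of -0.03 for Cdk4 (95% interval -0.53 to 0.46) and 0.02 for Cdk6 (-0.56 to 0.60), and the mitotic Cdk1 gave 0.14 (-0.35 to 0.62). Cdk12 and Cdk13, which phosphorylate RNA polymerase II, fell by 1.97 (SE 0.37, adjusted p = 0.00344; -2.58 to -1.36 with a sample left out) and 1.05 (SE 0.29, adjusted p = 0.0181). The call of Cdk13 was lost without D0 replicate 2 (-0.89) and without D13 replicate 1 (-0.66). Among the pocket proteins and E2F factors, 4 of 13 were called higher and 5 lower (69.2% in all), and without D0 replicate 1 only 2 were called higher. The largest falls were in E2f7 (-2.87, SE 0.31, adjusted p = 0.000193) and E2f8 (-2.57, SE 0.39, adjusted p = 0.00112), the atypical repressive E2F factors, and in the activator E2f3 (-2.48, SE 0.31, adjusted p = 0.000445). Rb1 gave -0.11 (95% interval -0.83 to 0.60).

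Among 26 replication and mitosis genes, 3 were called higher and 5 lower from D0 to D13, 30.8% in all beside 42.7% of all genes. The lower count was 3 without D0 replicate 1, 2 without D0 replicate 2, 3 in limma without the trend and 1 in the fit of these days alone and without D6 replicate 1 or D6 replicate 2, and the higher count was 5 without D0 replicate 1. Plk1, a mitotic kinase, fell by 1.27 (SE 0.23, limma adjusted p = 0.00251), and Cdc25a, a phosphatase that activates Cdk2, rose by 0.95 (SE 0.23, adjusted p = 0.0111). Mki67, a marker of cycling cells, was lower (-0.91, SE 0.29, adjusted p = 0.0347), but this call was lost without D0 replicate 2 (-0.67), without D13 replicate 1 (-0.53), without either D6 sample, in the fit of these days alone and in limma without the trend. The study reported globally constant proliferation during the conversion, by division rate, by transcripts of proliferation markers and by a mitotic histone mark.

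Among 24 genes of p53 and its targets, 9 were called higher and 3 lower from D0 to D13, beside 20.9% and 21.8% of all genes, and the median log2 fold change was 0.50. The higher count was 5 without D0 replicate 2 and in limma without the trend, and the lower count was 1 without D13 replicate 1 and in limma without the trend. Trp53 was lower, at 9.16 and 9.11 log2 CPM at D0, at 8.10 and 8.34 at D6 and at 7.49 and 7.42 at D13 (log2 fold change -1.68, SE 0.21, limma adjusted p = 0.000393). The stress gene Ddit4 (1.76, SE 0.23, adjusted p = 0.00053) and the ribonucleotide reductase subunit Rrm2b (1.57, SE 0.31, adjusted p = 0.00394) were higher. Called lower besides Trp53 were Perp (-1.45, SE 0.46, limma adjusted p = 0.0339) and Sesn2 (-1.06, SE 0.37, limma adjusted p = 0.0472). Mdm2, the ubiquitin ligase of p53 and itself its target, gave 0.13 (95% interval -0.44 to 0.71). Of the 24 genes, 12 were not called from D0 to D13.

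In the PI3K and FoxO list, 6 of 17 genes were called lower and 2 higher, 47.1% in all beside 42.7% of all genes. Without D13 replicate 2 these counts were 10 and 1, and without D0 replicate 1 the higher count was 1. Eras, an ES cell Ras protein that acts on PI3K, was lower (-3.68, SE 0.31, limma adjusted p = 6.71e-05), as were Foxo4 (-1.46, SE 0.27, adjusted p = 0.00303) and Foxo1 (-1.32, SE 0.23, adjusted p = 0.00232), forkhead factors known to activate Cdkn1b. The list of D cyclin regulators, which also holds feedback inhibitors of ERK signalling such as Spry4, held the most calls. Of its genes, 13 of 17 were lower at D13, beside 21.8% of all genes, and 0 higher, with a median log2 fold change of -1.82. The lower count was 9 to 11 with a sample left out. Spry4, a feedback inhibitor of ERK signalling, was at 7.64 and 6.84 log2 CPM at D0 and between -1.11 and 1.12 in 2i+vitC (D0 to D13 -7.61, SE 0.66, adjusted p = 7.11e-05). Egr1, an immediate-early factor, gave -7.47 (SE 0.53, adjusted p = 2.89e-05), and Myc, a direct activator of Ccnd2, gave -6.99 (SE 0.49, adjusted p = 2.89e-05). The median centring of samples and the fit without D13 replicate 1 each called 1 gene of this list higher. Among 16 regulators and neighbours of the INK4 locus, 3 were called higher and 3 lower (37.5% in all). Id1, which restrains Cdkn2a activation by Ets factors, was at 7.35 and 4.56 log2 CPM at D0 and gave -5.18 (SE 0.76, adjusted p = 0.000945), which was -3.78 without D0 replicate 1 and -6.58 when D0 replicate 2 was left out. Tbx3, a repressor of the locus, was higher (3.26, SE 0.26, adjusted p = 4.83e-05), and so was the Polycomb subunit Cbx8 (2.05, SE 0.48, adjusted p = 0.00946), which was 1.38 without D0 replicate 2 and 2.72 when D0 replicate 1 was left out, and whose call was lost without D13 replicate 1 (1.90).

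**Figure D5:**
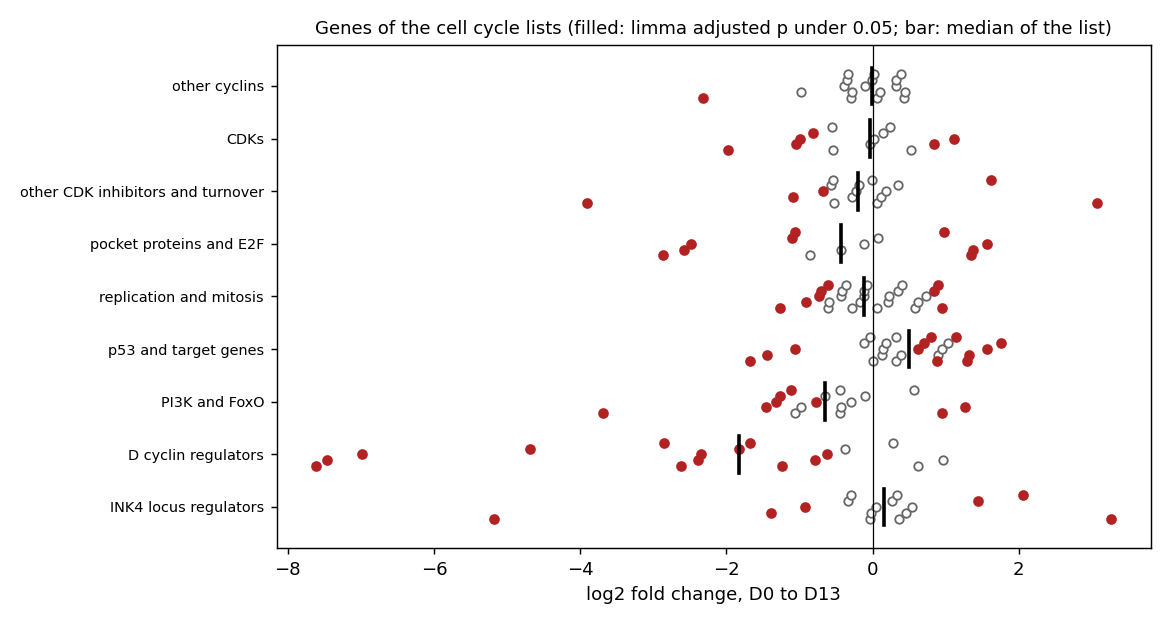
Log2 fold change from D0 to D13 (x axis) of the genes of 9 lists (y axis), each point a gene, filled where the limma adjusted p was under 0.05, with a bar at the median of the list. The D cyclin regulators lie mostly left of 0, 13 of 17 of them filled, and the other cyclins lie around 0 with 1 of 17 filled.

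From D0 to D6 the same lists held 14 genes called higher and 29 lower (27.6% in all, beside 24.2% of all genes), and from D6 to D13 they held 3 and 3 (3.85%, beside 4.18%). The list with the most calls between D0 and D6 was again that of the D cyclin regulators, with 12 of 17 lower and 1 higher. Exons of 5 of the 9 genes overlap exons of a gene on the other strand, over 1100 bases in Ccnd1, 372 and 368 in Ccnd2, 361 in Ccnd3, 609 in Ccne2 and 273 in Cdkn1a, and the strand setting of the counting is not given in the sources used here.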

How the data were processed

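RNA from WT J1 ES cells at D0, D6 and D13 was sequenced from stranded poly(A) libraries, with 2 biological replicates per day. For genes, the authors mapped reads onto mm10 with TopHat2 2.0.6 and RefSeq and counted them with HTSeq 0.6.1, and for transposon families they used Bowtie 1.0.0. They combined both, applied TMM and deposited log2 CPM values made with voom. Counts were not in the files used here, but every gene value was (reads + 0.5) times a constant per sample (100% whole within 0.01), which gave the reads and the depth (73230745 to 83688345 reads on genes).

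Samples were grouped by the day in the labels. The deposited log2 values of 12928 genes and families were tested with limma 3.58.1 (R 4.3.3), with a mean for each day over all 6 samples, a mean-variance trend, no block, and Benjamini-Hochberg adjustment over all rows. The 4-fold minimum is the rule of the study. The step difference is the change from D6 to D13 minus that from D0 to D6. The fit was tested on simulated data. An SD rests on 2 values, and 2 samples against 2 allow no informative exact test of a single gene, so that p-values measure only the spread between these samples with the variance shared across genes. Positions and exon lengths are from GENCODE vM21 (GRCm38), and promoters from RefSeq (GRCm38.p6). Tables and plots were made with Python 3.11.15, numpy 2.4.6, pandas 2.3.3 and matplotlib 3.10.9.

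The 9 genes, the lists and the tests were chosen with earlier results of these data known. Of each list, the 3 genes with the largest called change from D0 to D13 in the same direction in both replicate pairs were named, with Cdk4, Cdk6, Cdk2, Cdk1, Rb1, Trp53, Mdm2, Myc and Cdkn1c by choice. Pcna and Top2a were added because the study's probes held them, and Perp and Sesn2 as the other p53 list genes called lower. The deposited gene names are spelled without the capital letter G, which touches none of the 9. Alternatives were voom precision weights on the recovered reads, no trend, a fit of only the days compared, a block on the replicate number, leaving out each sample, a filter of 10 reads in 2 samples, log2(CPM + 1), median centring, genes only, 2-fold and 4-fold minimums, and the longest transcript as the length.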

Additional observations from a re-analysis of the deposited data

How the results depend on the processing

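Of the log2 fold changes of the 9 genes, 271 values under other settings than leaving out a sample kept their direction and their side of the threshold, 6 gained a call and 2 lost one. The filter on reads kept all 12928 rows and changed nothing. Ccnd2 rested on 18 and 33 reads at D13, and every day on 2 samples. With the 4-fold minimum the count of called genes was 1 from D0 to D6 and 3 from D0 to D13. With the longest transcript, Ccnd1 held 63.2%, 41.3% and 47.4% of the D-type sum at D0, D6 and D13, and Ccnd3 31.7%, 58.2% and 52.6%. With voom weights 1 list gene was called lower from D6 to D13. The cause of these shifts was not tested.

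Replicate numbers did not pair the samples: deviations of same-numbered samples correlated over genes at -0.13 (D0 and D6), 0.33 (D6 and D13) and 0.14 (D0 and D13). With the replicate number as a block, 4 of the 9 genes were called from D0 to D6 (Ccnd2 was added). The block called 1 of them (Ccnd2) from D6 to D13 and 7 from D0 to D13 (Ccne2 was added). It called 1 D cyclin regulator higher from D0 to D13. List genes called lower from D6 to D13 rose from 3 to 11, and all genes called from D6 to D13 rose from 528 to 1226. The all-gene counts with the block are not given here for D0 to D6 and D0 to D13. The calls added in those comparisons thus have no share of all genes beside them.

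Leaving out each sample in turn, the count of called genes among the 9 ranged from 3 to 6 from D0 to D6, from 0 to 0 from D6 to D13, from 4 to 7 from D0 to D13 and from 0 to 1 for the step difference. List genes called higher and lower ranged from 6 to 18 and from 17 to 35 (D0 to D6), from 0 to 5 and from 0 to 13 (D6 to D13) and from 19 to 26 and from 34 to 48 (D0 to D13). All genes called ranged from 1580 to 3532 (D0 to D6; 3051 with all samples), from 0 to 1337 (D6 to D13; 528), from 4002 to 5836 (D0 to D13; 5396) and from 247 to 1390 (step difference; 1117). The log2 fold changes whose sign depended on a sample ranged as follows, and none of them was called with all samples. From D0 to D6, Ccnd1 ranged from -0.42 to 0.33, Ccne2 from -1.17 to 0.0595 and Mdm2 from -0.18 to 0.27. From D6 to D13, Ccnd3 ranged from -0.20 to 0.43. From D0 to D13, Cdk1 ranged from -0.0211 to 0.30, Cdk4 from -0.19 to 0.13, Cdk6 from -0.0249 to 0.0616, Rb1 from -0.57 to 0.34 and Mdm2 from -0.11 to 0.38. The step difference ranged from -0.12 to 1.13 for Ccnd1, from -2.05 to 4.38 for Ccnd2, from -0.18 to 1.43 for Ccne1, from -0.66 to 0.57 for Ccne2 and from -0.90 to 0.32 for Cdkn2b.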

Other observations

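The genes next to these cyclins and inhibitors on the chromosome did not share a single direction. On each side, the nearest protein-coding gene with a value under its annotated name was taken, and genes that overlap were passed over. Those named were chosen after their values were seen. Rab44, which encodes a small GTPase and lies 13417 bases from Cdkn1a, was higher at D13 than at D0 (log2 fold change 4.25, SE 0.76, limma adjusted p = 0.0027). This value was 2.99 without D0 replicate 1, 5.50 when D0 replicate 2 was left out and 1.60 on log2(CPM + 1), and was called in each. Fgf15, which encodes a growth factor and lies 28977 bases from Ccnd1, was lower (-3.96, SE 0.51, adjusted p = 0.00051), while Ccnd1 passed no test. Parp11, 294646 bases from Ccnd2, was lower as well (-1.92, SE 0.29, adjusted p = 0.0012). Mtap, a methionine salvage enzyme gene 93389 bases from Cdkn2a, gave 0.45 (SE 0.27, adjusted p = 0.21), which was 0.0508 without D0 replicate 2, not called, and 0.85 without D0 replicate 1, called.

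The genes whose log2 CPM course over the 6 samples lay nearest to that of Ccnd2, by Euclidean distance after centring each gene on its mean, among 11241 genes with 10 or more reads in both samples of their higher day, were H19 (distance 1.02), Miat (1.52) and Nnat (1.52). H19 and Nnat are imprinted genes and Miat is a long noncoding RNA. They went from a mean of 4.54, 3.63 and 4.74 log2 CPM at D0 to -1.38, -2.38 and -1.44 at D13, against 4.14 and -1.56 for Ccnd2. For Cdkn1a the nearest courses were those of Dmrt3 (0.27), Luzp4 (0.28) and Ckmt1 (0.30), which differed in level, with means of 2.08, 1.93 and 6.22 log2 CPM at D13. These are descriptions over 6 samples that share their libraries.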
